A study of Homo sapiens with 2 samples.

Results

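MicroRNA miR-21 was followed through both arms of its hairpin, miR-21-5p and miR-21-3p, in small RNA libraries of an oral squamous cell carcinoma line and of its invasive derivative. The members were taken by name, as the 2 entries called miR-21-5p and miR-21-3p of the 1213 entries in the authors' deposited table. Both were listed above 0 in both libraries and passed the floor of 50 normalized reads, in whichever library was higher, that is used for counts here. The parental library came from UM-SCC6, an established human oral carcinoma line. The other library came from UM-SCC6-M, grown from cells of the same line that had crossed a matrix channel of a microfluidic chip, after 3 rounds of that selection. No drug, gene edit or further agent is named for either culture, and per the labels the UM-SCC6-M cells have some mesenchymal features and invade strongly. Each culture was sequenced as 1 library, without replicates, and the cultures were therefore compared by size and counting error alone. Fewer cells carrying a miRNA and less of it per cell cannot be told apart in such bulk RNA.

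A miRNA gene is transcribed as a long primary transcript, which is cut to a hairpin and then to a short duplex. One strand of the duplex, the guide, is kept by an Argonaute protein and directs it to messenger RNAs that pair with the guide's seed, bases 2 to 8. The other strand, the passenger, is mostly discarded. In miR-21 the guide is the 5p arm, known to repress the tumour suppressor transcript PDCD4 and to be abundant in many carcinomas, those of the mouth included. The passenger is the 3p arm, which can also enter Argonaute at a low level. The miR-21 gene is known to be induced by AP-1, STAT3 and NF-kB, and its hairpin is reported to be cut more efficiently when SMAD proteins bind the processing complex.

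The sequences below are from RefSeq (GRCh38.p14), which held the mature sequence of 1 of the 2 members and of 1037 of the 1178 deposited miRNA names. The guide is shown with the only other mature RefSeq miRNA that has its seed, and the seed is in capitals. In the hairpin, the capitals mark miR-21-5p, at bases 8 to 29 of 72.
miR-21-5p: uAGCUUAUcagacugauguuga
miR-590-5p: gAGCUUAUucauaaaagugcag
MIR21 hairpin: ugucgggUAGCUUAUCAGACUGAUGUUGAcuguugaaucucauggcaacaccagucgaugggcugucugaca
The hairpin lies on the plus strand at chr17:59841266-59841337, and its guide at chr17:59841273-59841294. miR-590-5p lies at chr7:74191213-74191234 on the plus strand. In GENCODE release 29 (GRCh38) the miR-21 hairpin is inside the gene VMP1 (chr17:59707192-59842255), in an exon of a VMP1 transcript that retains an intron, and 174 bases beyond the end of the last protein-coding VMP1 transcript. VMP1 encodes a membrane protein of autophagy. In a predicted fold of the hairpin, at -34.6 kcal/mol, 19 of the 22 guide bases were paired. Among 1559 other RefSeq hairpins no stretch came closer to the guide than 7 mismatches, and no other mature RefSeq miRNA overlapped the miR-21 hairpin on either strand.

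Levels are given in normalized reads, the reads of a miRNA as scaled by the authors. Dividing by the worth of 1 read gave whole reads. Summed over the deposited entries, these recovered reads came to 7699490 in UM-SCC6-M and 8182958 in the parental library. The sums include 35 candidate entries without a miRNA name, and 5 pairs of near-identical entries count under both names. A log2 ratio is that of UM-SCC6-M to the parental line. Intervals are exact 95% intervals (Clopper-Pearson). They express counting error and nothing else, and PCR copies of a molecule are counted as separate reads.

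The guide, miR-21-5p, was by far the most abundant miRNA of each library and differed little between them. It had 422740 normalized reads in UM-SCC6-M and 476130 in the parental library, on 3540350 and 3583024 reads. The parental value was thus the higher, by 1.13-fold under the authors' scaling, and the log2 ratio was -0.17 (-0.174 to -0.169). The narrow interval reflects the number of reads and says nothing of how much 2 cultures of 1 line would differ. As a share of all recovered reads the order was the opposite. miR-21-5p held 45.98% of the reads in UM-SCC6-M (45.95 to 46.02) and 43.79% in the parental library (43.75 to 43.82), a difference of 2.20 percentage points. The level and the share therefore gave opposite orders, and no direction is given for the guide.

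The passenger, miR-21-3p, was lower in UM-SCC6-M on either measure. It had 209.2 normalized reads in UM-SCC6-M and 673.2 in the parental library, on 1752 and 5066 reads. Its level was 3.22-fold lower (3.05 to 3.40), a log2 ratio of -1.69, and its share of the reads was 0.0228% (0.0217 to 0.0238) against 0.0619% (0.0602 to 0.0636). In rank it stood at place 76 of the parental library and at place 115 of UM-SCC6-M. A 2-fold difference at 50 or more normalized reads in the higher library was counted as a call by size. By that rule 1 of the 2 members was lower and 0 were higher. The background was 12.8% of the 179 miRNAs at the floor at least 2-fold lower and 7.26% at least 2-fold higher, or 20.1% either way. Among these 179, 10 had a lower log2 ratio than miR-21-3p and 72 a lower one than miR-21-5p. In the authors' deposited table the log2 fold changes were -0.17158 and -1.6861, with q-values of 1.65e-212 for miR-21-5p and 1.36e-41 for miR-21-3p. These q-values compare 2 libraries and not 2 conditions, and of the members only miR-21-3p carried the authors' mark for selected miRNAs.

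**Figure D1:**
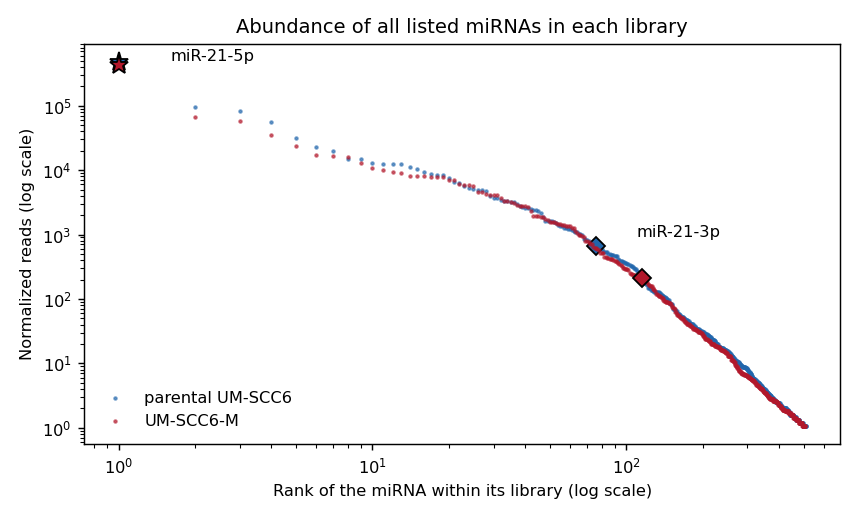
Normalized reads of every miRNA listed above 0 (log axis) against its rank in its library (log axis), with UM-SCC6-M in red and the parental library in blue. Stars mark miR-21-5p, at rank 1 in both libraries, and diamonds mark miR-21-3p, at rank 76 in the parental library and 115 in UM-SCC6-M.

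**Figure D2:**
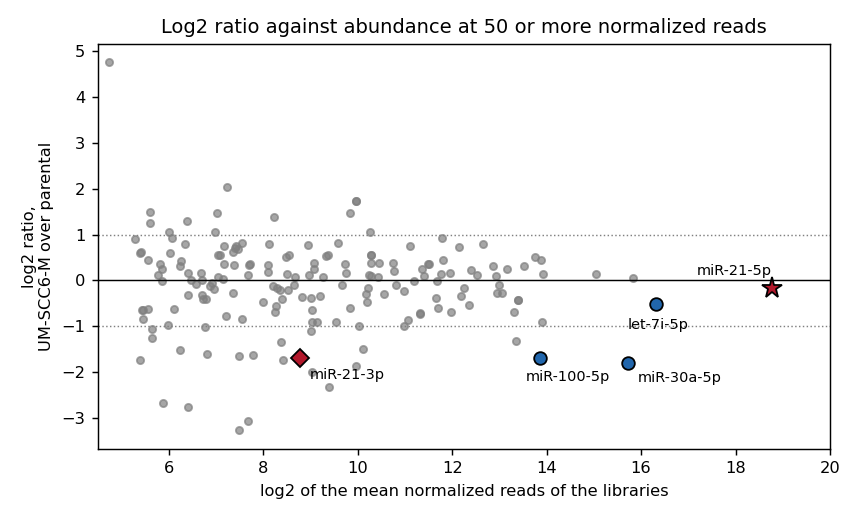
Log2 ratio of UM-SCC6-M over parental against the log2 of the mean normalized reads, for the 179 miRNAs at the floor; dotted lines mark 2-fold. The star, miR-21-5p, lies at -0.17 at the far right, and the diamond, miR-21-3p, at -1.69.

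The arms of miR-21 come from the same hairpin, so their ratio within a library does not depend on how the libraries are scaled. In the parental library there were 707 guide reads for each passenger read (688 to 727). In UM-SCC6-M there were 2021 (1928 to 2119). The passenger made up 0.141% of the hairpin's reads in the parental library (0.137 to 0.145) and 0.0495% in UM-SCC6-M (0.0472 to 0.0518). The balance thus lay 2.86-fold further toward the guide in UM-SCC6-M (exact conditional interval 2.71 to 3.02), or 1.51 on the log2 scale. At the parental arm ratio the guide reads of UM-SCC6-M would go with 5006 passenger reads, and 1752 were found. Because the passenger is so scarce, the sum of both arms followed the guide, at 422949 normalized reads in UM-SCC6-M and 476803 in the parental library.

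Other hairpins give the background for this arm difference. In 30 hairpins both arms passed the floor, and 9 of them, or 30%, differed by 1 or more in the log2 balance. Of these 9, 5 shifted toward the 5p arm and 4 toward the 3p arm. The major arm is the one with more reads in the 2 libraries together. The arm with more reads within a library differed between the libraries in 3 of the 30 hairpins, miR-30e and miR-181a among them. In 4 of the 30, or 13.3%, the shift was 1 or more toward the major arm, as in miR-21. The others were miR-339, miR-374b and miR-99b. By size the miR-21 difference was the fifth of the 30. miR-30a (-1.97), miR-30e (-1.92), miR-339 (1.80) and miR-455 (-1.66) had larger ones, and the median absolute difference was 0.76. The remaining hairpins past 1 were miR-181a (-1.47), miR-151a (1.46), miR-374b (1.29) and miR-99b (1.25). The names miR-423 and miR-3184 stand for the 2 strands of a single locus with shared reads. With 1 of them left out, 9 of 29 hairpins were past 1.

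In miR-21 the difference came from the minor arm, as the guide moved by -0.17 and the passenger by -1.69. The same was seen in miR-339, whose 5p arm had a log2 ratio of 0.07 while the balance shifted by 1.80, and in miR-99b, with -0.09 for its 5p arm. In miR-374b both arms were higher, the 5p or major arm with a log2 ratio of 1.72 and the 3p arm with 0.43. In miR-30a, miR-30e and miR-455 it was the 5p arm that was lower, with log2 ratios of -1.81, -1.86 and -1.99. That arm had more reads than the 3p arm in both libraries for miR-30a and miR-455. In miR-30e it had more reads only in the parental library. In UM-SCC6-M miR-30e had 3622 reads of the 5p arm and 5294 of the 3p arm. Over the 30 hairpins the minor arm had the larger absolute log2 ratio in 18. It was lower relative to its major arm in 12 and higher in 18. The locus of miR-423 and miR-3184 counts under both names in each 18. Which arm has the larger absolute log2 ratio depends on the scaling, whereas the arm balance does not.

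**Figure D3:**
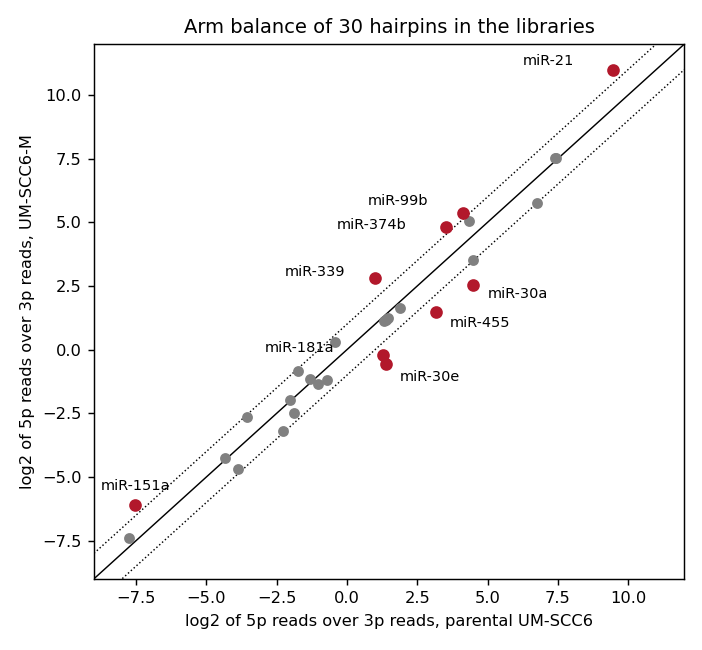
Log2 of 5p reads over 3p reads in UM-SCC6-M (vertical axis) against the parental library (horizontal axis) for 30 hairpins, with equal balance on the solid line and a difference of 1 on the dotted lines. The 9 hairpins at or past a difference of 1 are red and named; miR-21 is at the upper right, at 10.98 in UM-SCC6-M and 9.47 in the parental library.

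miR-21 was also the hairpin with the scarcest passenger among these 30, in both libraries. Its minor arm made up 0.0495% of the hairpin's reads in UM-SCC6-M and 0.141% in the parental library. The medians for the arm with fewer reads in each library were 14.3% in UM-SCC6-M and 13.6% in the parental library. The next lowest in UM-SCC6-M were let-7a at 0.536% and miR-10a at 0.545%, and in the parental library miR-200b at 0.465% and miR-151a at 0.528%. The order depends on the floor, since only a very abundant hairpin can be that uneven and still have 50 normalized passenger reads. Of 93 hairpins with at least the major arm past the floor and reads known for both arms, 3 had a lower minor share than miR-21 in UM-SCC6-M and 12 in the parental library. let-7i had 63 passenger reads beside 561721 guide reads in UM-SCC6-M and 74 beside 718759 in the parental library. let-7g had 2 and 9 passenger reads, and miR-182 had 6 and 26. These 3 were lower than miR-21 in both libraries.

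The first base is one of the features that Argonaute proteins are known to read when a strand is chosen, with a preference for U. miR-21-5p begins with U. In the same 30 hairpins, 18 of 28 major arms with a RefSeq sequence began with U, and 6 of 26 minor arms did. The 30 hairpins hold the locus of miR-423 and miR-3184 under both names. Of all miRNAs at the floor with a RefSeq sequence, 87 of 158 began with U.

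The seed family of the guide was carried by miR-21-5p almost alone. miR-590-5p, which shares its seed and so in part its targets, was listed at 0 in UM-SCC6-M and at 2.13 normalized reads in the parental library. The deposited fold change gives 4 reads for UM-SCC6-M, beside 16 in the parental library, and the ratio of 4.08-fold lower has an interval of 1.44 to 18.3. The other arm of that hairpin, miR-590-3p, has a different seed and was far more abundant. It had 58.0 normalized reads in UM-SCC6-M and 58.7 in the parental library, a log2 ratio of -0.02 (-0.21 to 0.17).

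How far miR-21-5p stood above the rest depended on what it was set against. let-7i-5p, a let-7 member known to repress RAS transcripts, was the second most abundant miRNA in both libraries. There were 6.30 miR-21-5p reads for each let-7i-5p read in UM-SCC6-M and 4.99 in the parental library. Against let-7f-5p the ratio was 7.19 in UM-SCC6-M and 8.36 in the parental library. Against miR-30a-5p it was 17.6 and 5.67, the largest difference of the abundant miRNAs compared, and against let-7g-5p it was 11.97 and 14.96. Set against its neighbours in rank, with no scaling between libraries, the guide was thus higher in UM-SCC6-M for some and lower for others.

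Reads were left for the rest of each library in like amount. Entries other than miR-21-5p shared 4159140 reads in UM-SCC6-M, or 54.0% of its recovered reads, and 4599934 in the parental library, or 56.2%. Of these remaining reads let-7i-5p held 13.5% in UM-SCC6-M and 15.6% in the parental library, miR-30a-5p 4.83% and 13.7%, and let-7f-5p 11.8% and 9.32%. The evenness of a library can be given as an effective number of miRNAs, the inverse of the sum of squared shares. It was 4.43 in UM-SCC6-M and 4.73 in the parental library. Without miR-21-5p it was 20.4 and 15.9. The order of the libraries turned when the guide was left out, and UM-SCC6-M was then the more even one.

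The weight of miR-21-5p bears on any scaling to total reads. Under the authors' scaling the log2 ratio of miR-21-5p was -0.17, and it became 0.07 with the libraries scaled to their total recovered reads. Leaving miR-21-5p out of those totals gave 0.13, a further shift of 0.06 that applies to every miRNA. In this shift of the totals miR-21-5p came after miR-30a-5p, which moved them by -0.08 in the other direction when left out. The next was let-7i-5p, at -0.02. Leaving out the 10 most abundant miRNAs together gave -0.07 for miR-21-5p. A trimmed mean of M-values, which sets extreme and very abundant miRNAs aside, gave -0.19, and a median of ratios gave -0.13.

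Calls of other miRNAs moved with these scalings. At the floor of 50 normalized reads 13 miRNAs were at least 2-fold higher and 23 lower under the authors' scaling. With total reads it was 22 higher and 20 lower, and with totals that leave out miR-21-5p 26 higher and 19 lower. Taking the guide out of the total thus brought 4 miRNAs past 2-fold higher and took 1 out of 2-fold lower. The median log2 ratio of the 179 was 0.04 under the authors' scaling and 0.28 under total reads. Relative to that median miR-21-5p stood at -0.21 and miR-21-3p at -1.72 under each of these scalings.

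miRNAs often used as references in PCR assays gave both signs for the guide. Scaled to miR-103a-3p its log2 ratio was 0.10, scaled to miR-16-5p it was -0.53, and scaled to miR-191-5p it was -0.91. At the floor they gave 26 higher and 19 lower miRNAs with miR-103a-3p, 8 and 42 with miR-16-5p, and 2 and 68 with miR-191-5p. These references themselves had log2 ratios of -0.27, 0.36 and 0.74 under the authors' scaling. miR-21-3p was lower by more than 2-fold under each of these scalings, from -1.39 with totals that leave out miR-21-5p to -2.42 with miR-191-5p.

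**Figure D4:**
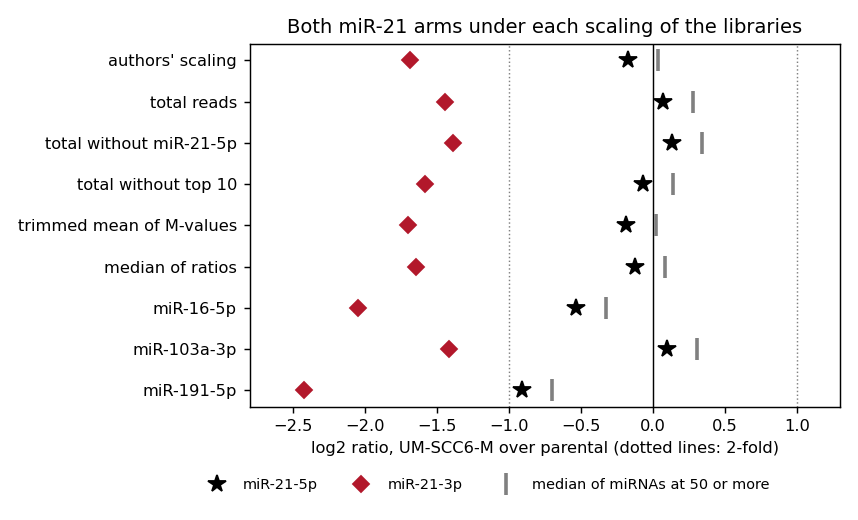
Log2 ratio of UM-SCC6-M over parental for miR-21-5p (stars), miR-21-3p (diamonds) and the median of the 179 miRNAs at 50 or more normalized reads (bars) under each scaling of the libraries; dotted lines mark 2-fold. miR-21-5p lies between -0.91 and 0.13 and changes sign, whereas miR-21-3p lies between -2.42 and -1.39.

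The miRNAs with the log2 ratio nearest to each member were chosen over the 2 libraries among those at the floor. For miR-21-5p these were miR-500a-3p (-0.17), miR-27b-3p (-0.17) and miR-149-5p (-0.18), each at most 0.012 away. For miR-21-3p they were miR-100-5p (-1.68), miR-548o-3p (-1.65) and miR-147b (-1.73), each at most 0.047 away. With 2 libraries this likeness is 1 number per miRNA and says no more than that.

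Other miRNAs linked to a target or to the regulators of miR-21 were read from 4 lists, beside a median log2 ratio of 0.04 over all 179 miRNAs at the floor. Of the miRNAs reported to repress PDCD4, an inhibitor of translation, 3 of 5 listed members were at the floor. miR-96-5p had 223.4 normalized reads in UM-SCC6-M and 1122 in the parental library, and so was 5.02-fold lower. miR-182-5p (0.09) and miR-183-5p (-0.01), from the same cluster, lay near 0. The median of the 3 was -0.01. The remaining members with an entry were below the floor and went in opposite directions. miR-424-5p, on 285 reads in UM-SCC6-M and 127 in the parental library, was 2.01-fold higher (1.63 to 2.51). miR-499a-5p, on 33 and 67 reads, was 2.24-fold lower (1.47 to 3.54).

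Of the miRNAs induced by AP-1, STAT3 or NF-kB, 6 of 7 listed were at the floor, with none 2-fold apart, beside 20.1% of all 179, and a median of -0.36. miR-146a-5p (0.31) and miR-155-5p (0.24), which respond to NF-kB, lay above 0. miR-221-3p (-0.34), miR-222-3p (-0.54), miR-181b-5p (-0.39) and miR-146b-5p (-0.41) lay below. The list of hairpins whose processing is reported to be raised by SMAD proteins had 4 listed members, none at the floor. miR-421 had 23.8 normalized reads in UM-SCC6-M and 17.1 in the parental library, miR-199a-3p had 21.9 and 10.5, and miR-215-5p had 6.57 and 5.32. miR-199a-5p went the other way, with 1 read in UM-SCC6-M and 13 in the parental library, a ratio of 10.02-fold lower with an interval of 2.17 to 615. Of the miRNAs called oncogenic in head and neck carcinoma, 7 of 10 listed were at the floor, none was 2-fold apart (20.1% of all 179 were), and the median was -0.07. miR-31-5p, known from oral carcinoma, had 93.9 and 98.5 normalized reads.

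The labelled cell type was checked on a list of 8 names of epithelial miRNAs. Only 5 of them were listed, and 3 had no entry: miR-141-3p, miR-205-5p and miR-203a. The last is another name of miR-203a-3p, which was listed, so the check leaves out miR-141-3p and miR-205-5p. miR-200b-3p had 17481 normalized reads in UM-SCC6-M and 12823 in the parental library, miR-200a-3p 1344 and 2674, and miR-429 793.1 and 844.7. miR-203a-3p, a keratinocyte miRNA, was scarce, at 23 reads in UM-SCC6-M and 7 in the parental library, and miR-200c-3p had 15 and 20. miR-21 is also abundant in fibroblasts. The 7 fibroblast markers summed to 113.1 normalized reads in UM-SCC6-M and 64.6 in the parental library. Most of that sum was miR-199b-5p, the only one at the floor, which had 87.2 and 42.0 normalized reads and was 2.07-fold higher (log2 ratio 1.05). The listed value of miR-143-3p was 4.06 in UM-SCC6-M and 10.4 in the parental library, and 3 of the markers had a listed value of 0 throughout (miR-127-3p, miR-145-5p, miR-214-3p). The sum of these markers was thus under the level of miR-21-3p in either library, and its part in the miR-21 values was not tested.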

How the data were processed

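Per the labels' protocols, 3 µg of total RNA per culture went into a ligation-based small RNA library, and gel slices of 140 to 160 bp were kept. The submitters' processing notes name Bowtie without a version. For genome build, miRNA database, counting and scaling tool, the entry is: not given in the sources used here.

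In the 1 table that the authors deposited, the 2 library columns hold a read signal scaled by the authors, called normalized reads here, with values under 1 listed as 0. Within a library all listed values were multiples of a common step, to within 7.2e-05 reads, and division by it gave the recovered reads. Where 1 column was 0, the deposited log2 fold change gave the reads, within 0.00023 of whole. Reads in both libraries were known for 555 of 1213 entries. The deposited log2 fold changes, p-values and q-values are the authors' comparison and were copied, not used for calls.

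Log2 ratios used 0.5 added reads per library. With 1 library per group no test was made. The trimmed mean of M-values (30% and 5% trims) was computed on recovered reads. Scripts were tested on simulated data. Near-identical names of opposite-strand loci (5 pairs) were counted once as an alternative.

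The members and lists were chosen with earlier results of these data known. Of the lists planned, 1 is not reported here. The miRNAs named were the members, those with the seed of miR-21-5p, the 5 most abundant others and the 3 nearest in log2 ratio. RefSeq held no mature miR-21-3p, so its seed was not searched. Also named were hairpins with an arm difference of 1 or more or next to miR-21 in passenger share. From the lists, up to 4 abundant members at the floor and any 2-fold apart were named. The reference miRNAs, marker miRNAs below the floor and hairpins with a lower passenger share without the floor were named after their values were seen. So were miR-421, miR-199a-3p, miR-199a-5p, miR-215-5p, miR-590-3p, miR-31-5p, miR-181b-5p, miR-146b-5p, miR-424-5p and miR-499a-5p as list examples.

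Python 3.11.15, numpy 2.4.6, pandas 2.3.3, scipy 1.17.1, matplotlib 3.10.9 and ViennaRNA 2.7.2 were used.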

Additional observations from a re-analysis of the deposited data

How the results depend on the processing

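The direction of miR-21-5p depended on the scaling. Its log2 ratio of -0.17 became 0.071 with total reads, 0.13 with totals without miR-21-5p, -0.071 with totals without the 10 most abundant miRNAs, -0.19 with the trimmed mean of M-values and -0.13 with the median of ratios. With reference miRNAs chosen after seeing the data it was -0.53 (miR-16-5p), 0.10 (miR-103a-3p) and -0.91 (miR-191-5p). miR-21-3p stayed more than 2-fold lower in the same settings, at -1.44, -1.39 and -1.59 for the totals, -1.70 and -1.64 for the trimmed mean and the median of ratios, and -2.05, -1.42 and -2.42 for the reference miRNAs. The arm balance difference of 1.51 stayed inside its interval with 0 or 5 reads added before the log. With 1 name per near-identical pair the share of miR-21-5p was 46.9% in UM-SCC6-M and 44.6% in the parental library.

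The count of miRNAs at least 2-fold higher, 13 at the floor of 50, was 22 with total reads, 26 with totals without miR-21-5p, 8, 26 and 2 with miR-16-5p, miR-103a-3p and miR-191-5p as reference, 21 at a floor of 10, 6 at 200 and 59 with no floor, and 32 at a threshold of 1.5-fold and 2 at 4-fold. The count lower, 23, was 42 with miR-16-5p and 68 with miR-191-5p as reference, 45 at a floor of 10, 15 at 200 and 110 with no floor, and 46 at 1.5-fold and 5 at 4-fold. Hairpins with an arm difference of 1 or more, 9 of 30, were 20 of 70 at a floor of 10, 5 of 13 at 200 and 40 of 128 with no floor. The counts at other floors and thresholds follow from how many entries each admits; those under other scalings rest on the same 179 miRNAs, all shifted by 1 amount. miR-21 had the lowest passenger share of all hairpins at floors of 10, 50 and 200 in both libraries, and ranked 4 from the lowest in UM-SCC6-M and 13 in the parental library without a floor.

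No paired analysis was possible because each group has 1 library. The spread between cultures and between library preparations was not measured.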

Other observations

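Markers of further cell types were set beside the miR-21 passenger, which had 209.2 normalized reads in UM-SCC6-M and 673.2 in the parental library. Of the endothelial pair, miR-126-3p had 519.9 normalized reads in UM-SCC6-M and 968.3 in the parental library, above miR-21-3p in both. miR-126-5p had 30.6 and 17.8. Among blood cell markers miR-486-5p had 17.9 and 24.6, and the listed value was 0 throughout for miR-451a and miR-142-3p. The muscle miRNA miR-1-3p was at 108.8 in UM-SCC6-M and 333.0 in the parental library. Its log2 ratio of -1.61 lies close to the -1.69 of miR-21-3p. miR-133a-3p, the only other muscle marker with an entry, had 2.51 and 4.12, a log2 ratio of -0.71 (-1.59 to 0.13). No cell type of these lists was tested as a source of the miR-21 reads.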
